A study of Arabidopsis thaliana with 16 samples.

Results

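B-box zinc finger genes were described here by 6 probe sets of the Affymetrix ATH1 array: CO (246525_at), COL1 (246523_at), COL2 (258497_at), BBX24, also called STO (260956_at), BBX25, also called STH (263252_at), and BBX29 (AT5G54470, 248160_at). They were chosen by name, and they are 6 of the 22746 probe sets of the array that are not controls. All 6 passed the filter on dim signals, which 14878 probe sets passed, and all p-values were adjusted over those 14878. The array annotation used here lists no gene for these 6 probe sets, so their names are those of the choice. The loci AT5G15840 (CO), AT5G15850 (COL1), AT3G02380 (COL2), AT1G06040 (BBX24), AT2G31380 (BBX25) and AT5G54470 (BBX29) carry these symbols or synonyms in the TAIR10.1 gene table. CO, COL1 and BBX29 lie on chromosome 5, COL2 on chromosome 3, BBX24 on chromosome 1 and BBX25 on chromosome 2. Probe sequences were not used, so signal shared between related genes on the array was not assessed.

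The study measured total RNA of whole Arabidopsis thaliana seedlings around dawn, on 16 arrays with 1 sample each. The lhy cca1 seedlings carried the T-DNA alleles lhy-21 and cca1-11 in the Wassilewskija background, and the WS seedlings were wild type of that accession. LHY and CCA1 are MYB-like factors that act around dawn in the circadian clock, and the title of the series asks for candidates for Y, a proposed component of that clock. Each genotype had 2 samples before dawn (15 min before lights-on) and 2 each at 15, 30 and 60 min after it, which gives 8 groups of 2.

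All seedlings, of both genotypes, had 4 days of cold in the dark, grew for 9 days at 22 °C on Murashige and Skoog medium with 3% sucrose, and had cycles of 18 h light and 6 h dark at 60 to 65 µE. No sample was kept in the dark past dawn, so light and time of day cannot be told apart. The labels do not tie the 2 samples of a group to separate plantings, so p-values cover only the variation among these arrays, some of which may be technical. In RNA of whole seedlings, fewer cells that express a gene and less RNA per cell cannot be told apart.

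B-box proteins are plant regulators of transcription that hold zinc-binding B-box domains, through which they contact other proteins. CO, COL1 and COL2 also carry a CCT domain at their other end, which BBX24, BBX25 and BBX29 lack. CO (CONSTANS) is the activator of the florigen gene FT in long days, and it measures day length because its RNA follows the clock while its protein is stable only in light. BBX24 and BBX25 bind the light-signalling factor HY5 and restrain seedling responses to light.

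Array medians of signal lay between 33.6 and 38.3, and the 2 arrays of a group correlated at 0.932 to 0.949. The arrays of the second replicate of lhy cca1 stood apart in the 25S ribosomal RNA control probe set, with a mean log2 signal of 8.74, against 6.79 on the first lhy cca1 arrays and 6.57 on the WS arrays. RCA, the shoot marker with a named probe set, and PYK10, a root marker, were bright in every group. The root hair marker EXPA7 was bright in few samples, and no seed storage marker had a named probe set. LHY and CCA1 had no named probe set, so the genotype labels were not checked against them. A signal below the 40th percentile of its array, which lay between 19.1 and 22.0, is called dim. A group is dim where both its arrays are.

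The B-box signals can be described as 3 kinds over the hour around dawn. BBX24, BBX25 and BBX29 had rises that passed the test below in both genotypes. COL1 and COL2 were bright on all 16 arrays, as were BBX24 and BBX25, but had no rise that passed. COL2 had a fall that passed in lhy cca1 at 60 min. CO was low throughout. The median of the 16 arrays was 17.4 for CO, 663 for COL1, 984 for COL2, 768 for BBX24, 560 for BBX25 and 29.1 for BBX29. These medians are not a ranking of RNA amounts, because probe sets differ in how brightly they bind. CO lay above its array's 40th percentile on 6 arrays and BBX29 on 10.

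**Figure D1:**
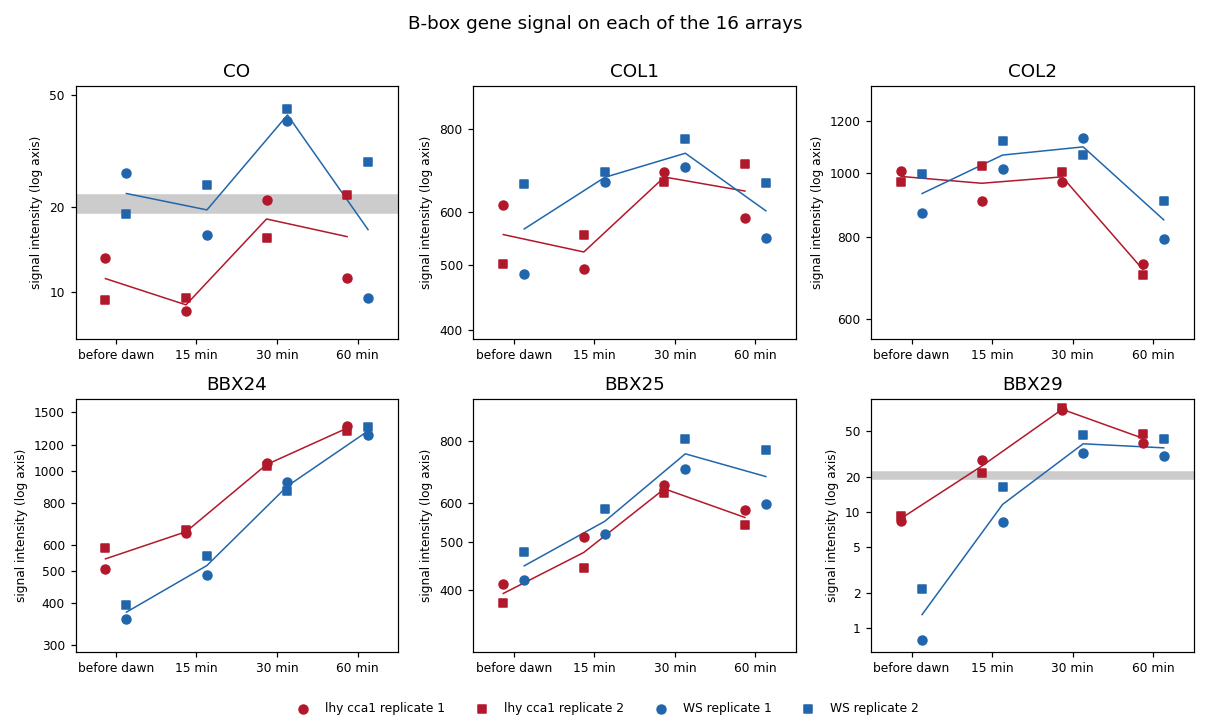
Signal intensity (log axis) of the 6 B-box probe sets on each of the 16 arrays before dawn and at 15, 30 and 60 min, with lines through the group means of log2 signal and a grey band at the 40th percentiles of the arrays (19.1 to 22.0). BBX24 climbs at each step in both genotypes, BBX29 leaves the dim range by 30 min, and CO stays close to or under the band except in WS at 30 min.

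CO was dim in lhy cca1 at 3 of the 4 times. In lhy cca1 its signal was 13.2 and 9.38 before dawn, 8.52 and 9.49 at 15 min, 21.1 and 15.6 at 30 min, then 11.2 and 22.1 at 60 min. On WS arrays it was 26.4 and 18.9 before dawn, 15.9 and 24.0 at 15 min, 40.4 and 44.8 at 30 min, then 9.54 and 29.0 at 60 min. The lhy cca1 arrays lay below the WS arrays at the first 3 times and overlapped them at 60 min. The WS arrays at 60 min were 1.60 log2 apart, the widest gap between the 2 arrays of a group for CO. Both WS arrays at 30 min were the brightest of all 16.

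COL1, a close relative of CO whose overexpression is known to shorten circadian period, was bright and varied little. Its signal in lhy cca1 was 616 and 501 before dawn, 493 and 555 at 15 min, 691 and 666 at 30 min, then 588 and 709 at 60 min. The WS values were 484 and 663 before dawn, 666 and 689 at 15 min, 701 and 773 at 30 min, then 549 and 663 at 60 min. The genotypes overlapped before dawn and at 60 min, and the lhy cca1 arrays were the lower ones at 15 and 30 min.

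COL2, another CONSTANS-like gene, was level until 30 min in lhy cca1 and lower at 60 min. COL2 in WS was higher on both arrays at 15 and 30 min than before dawn, and overlapped that level at 60 min. In lhy cca1 its signal was 1007 and 970 before dawn, 908 and 1026 at 15 min, 971 and 1003 at 30 min, then 728 and 699 at 60 min. For WS the values were 869 and 996 before dawn, 1013 and 1121 at 15 min, 1130 and 1064 at 30 min, then 794 and 908 at 60 min. The lhy cca1 arrays at 60 min were the lowest COL2 signals of the series.

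BBX24 arrays of a group were never more than 0.21 log2 apart. In lhy cca1 its signal was 506 and 585 before dawn, 651 and 663 at 15 min, 1054 and 1037 at 30 min, then 1370 and 1322 at 60 min. WS arrays gave 358 and 395 before dawn, 487 and 554 at 15 min, 930 and 874 at 30 min, then 1286 and 1354 at 60 min. Within each genotype, both arrays at each time lay above both arrays of the time before. The lhy cca1 arrays were the higher ones up to 30 min, and at 60 min the genotypes overlapped.

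BBX25, the closest relative of BBX24 among the 6, was on average highest at 30 min in both genotypes. In lhy cca1 its signal was 412 and 376 before dawn, 513 and 443 at 15 min, 652 and 628 at 30 min, then 579 and 542 at 60 min. The WS arrays read 419 and 478 before dawn, 519 and 583 at 15 min, 701 and 807 at 30 min, then 597 and 767 at 60 min. The lhy cca1 arrays lay below the WS arrays at all 4 times, by narrow margins.

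BBX29, a smaller member of the family, was dim before dawn in both genotypes. In lhy cca1 its signal was 8.35 and 9.23 before dawn, 28.2 and 21.8 at 15 min, 75.3 and 78.1 at 30 min, then 39.5 and 47.0 at 60 min. Signal in WS was 0.778 and 2.16 before dawn, 8.24 and 16.3 at 15 min, 32.4 and 46.1 at 30 min, then 30.1 and 42.3 at 60 min. The lhy cca1 arrays were the higher ones up to 30 min, and at 60 min the genotypes overlapped. WS was still dim at 15 min, when both lhy cca1 arrays lay above their own 40th percentile, the second of them narrowly (21.8 against 21.3). The genotypes were not shown to differ at that time (limma adjusted p = 0.25).

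The first comparison asks which of these genes changed after dawn within a genotype. BBX24, BBX25 and BBX29 rose in both genotypes by 30 min and were still higher than before dawn at 60 min. CO and COL1 passed the test at no time. COL2 fell in lhy cca1 at 60 min. Differences below are log2 later minus before dawn, with the standard error of the limma fit and 2 arrays per group, and the threshold is an adjusted p under 0.05 in limma over all 14878 probe sets.

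At 15 min none of the 6 genes passed in lhy cca1, against 0.0807% of all tested probe sets. An unadjusted limma p under 0.05 was found for 2 of the 6, and for 736 of all 14878. In WS, BBX29 alone passed (adjusted p = 0.00546), against 0.128% of probe sets. It was dim in WS at both times, so no fold is given, and with dim signals raised to the 40th percentile the difference was -0.021 (adjusted p = 0.996). The call was also lost with 16 added before log2 (adjusted p = 0.308), with only the arrays compared (0.619), without the second lhy cca1 arrays (0.0771) and without the second WS array at 15 min (0.115). The BBX24 difference at 15 min was 0.27 ± 0.12 in lhy cca1 and 0.47 ± 0.12 in WS, short of the threshold in both (limma adjusted p = 0.96 and 0.273).

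At 30 min 3 of the 6 passed in each genotype, against 1.74% of probe sets in lhy cca1 and 2.14% in WS. BBX24 rose by 0.94 ± 0.12 in lhy cca1, which is 1.92-fold (limma adjusted p = 1.55e-04), and by 1.26 ± 0.12 in WS, which is 2.39-fold (limma adjusted p = 5.27e-06). BBX25 rose by 0.70 ± 0.14 in lhy cca1 (1.62-fold, limma adjusted p = 0.0122) and by 0.75 ± 0.14 in WS (1.68-fold, limma adjusted p = 0.00697). BBX29 was at least 3.59-fold higher than before dawn in lhy cca1 (limma adjusted p = 5.13e-04) and at least 1.90-fold higher in WS (limma adjusted p = 3.9e-06). These are bounds, because the signal before dawn was dim and was replaced by the 40th percentile. The p-values beside them are those of the main fit, without that replacement. With dim signals raised to the 40th percentile, the limma adjusted p was 1.71e-04 in lhy cca1 and 0.0259 in WS. The lower bound in WS does not mean a smaller rise in WS, since the dim starting level there is unknown.

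CO at 30 min in WS was above both arrays before dawn, by 0.93 ± 0.47 (limma adjusted p = 0.471). COL1 at 30 min was higher than before dawn by 0.29 ± 0.16 in lhy cca1 and 0.38 ± 0.16 in WS (limma adjusted p = 0.667 and 0.338). COL2 at 30 min differed from before dawn by -0.0020 in lhy cca1, with a 95% interval of -0.25 to 0.25, and by 0.24 in WS, with an interval of -0.016 to 0.49. These 3 genes were not shown to change in the first 30 min, and the interval for CO reached from -0.073 to 1.93 in WS.

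At 60 min 4 of the 6 passed in lhy cca1, against 9.51% of probe sets, and 3 of the 6 passed in WS, against 8.92%. BBX24 was higher than before dawn by 1.31 ± 0.12 in lhy cca1, which is 2.47-fold (limma adjusted p = 1.61e-06), and by 1.81 ± 0.12 in WS, which is 3.51-fold (limma adjusted p = 3.12e-08). BBX25 was higher by 0.51 ± 0.14 in lhy cca1 (limma adjusted p = 0.0308) and by 0.60 ± 0.14 in WS (limma adjusted p = 0.0124). BBX29 was at least 2.02-fold higher in lhy cca1 (limma adjusted p = 0.00226) and at least 1.75-fold higher in WS (limma adjusted p = 2.19e-06). With dim signals raised to the 40th percentile, the limma adjusted p was 0.00488 in lhy cca1 and 0.0216 in WS.

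COL2 was the 1 gene of the 6 that fell. At 60 min in lhy cca1 it fell by 0.47 ± 0.12 log2 relative to before dawn, to 0.722 of the earlier signal (limma adjusted p = 0.0177). In WS the same difference was -0.13 ± 0.12 (limma adjusted p = 0.576), and the 2 genotypes were not shown to differ in it: the difference between them was -0.34 ± 0.17 (limma adjusted p = 0.743). The median of the 6 genes at 60 min was 0.50 in lhy cca1 and 0.34 in WS, while the median of all tested probe sets was -0.0088 in lhy cca1 and -0.036 in WS.

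The BBX24 rises at 30 and 60 min passed the threshold in all 26 other settings tried, in both genotypes, and so did those of BBX29 in WS. Many of the 26 leave the difference itself unchanged, such as leaving out an array outside the groups compared. With dim signals raised to the 40th percentile, the BBX29 rise in WS was 0.93 log2 at 30 min and 0.81 at 60 min. The BBX29 rises in lhy cca1 passed in 25 of the 26 at each of these times. The BBX25 rises and the fall of COL2 rest on few arrays. In lhy cca1 the BBX25 rise at 30 min was lost without either array at 30 min or the second before dawn (highest adjusted p = 0.154), and at 60 min without any 1 of the 4 arrays compared (highest 0.21). In WS it was lost without the first array before dawn or the second at the later time (highest 0.112 at 30 min and 0.122 at 60 min). The COL2 fall was lost without any 1 of its 4 arrays (highest 0.102), and the BBX29 rises in lhy cca1 without all second lhy cca1 arrays together (0.121 at 30 min and 0.161 at 60 min). Without those arrays the lhy cca1 calls of BBX25 were lost too (0.436 at 30 min and 0.362 at 60 min), as was that of COL2 (0.272). When only the arrays compared were fitted, the calls at 60 min were lost for BBX25 (0.0621 in lhy cca1 and 0.106 in WS) and COL2 (0.0735).

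**Figure D2:**
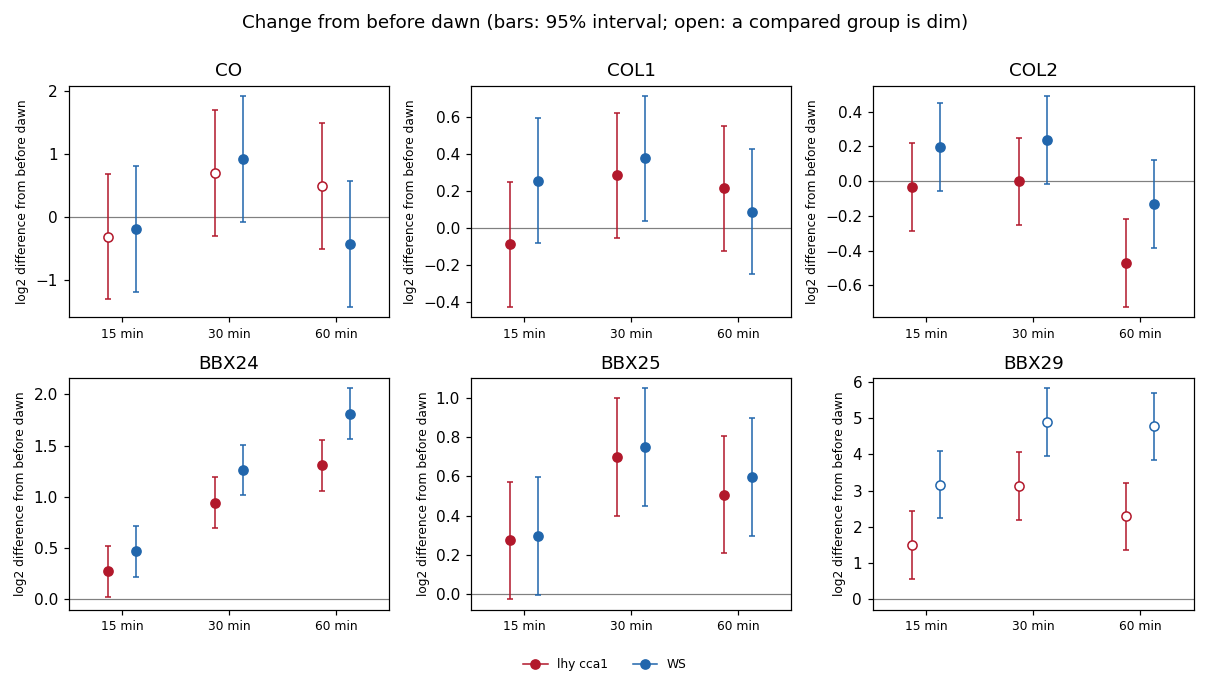
Log2 difference from before dawn at 15, 30 and 60 min for the 6 B-box genes in lhy cca1 and WS (points, with 95% intervals from limma, 2 arrays per group), with open points where a compared group is dim. BBX24 rises at every step to 1.31 in lhy cca1 and 1.81 in WS, BBX25 is highest at 30 min, and the intervals of CO and COL1 cross 0 at all times except COL1 in WS at 30 min.

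The times were also compared with each other, to see when the changes took place. Between 15 and 30 min, a comparison added after the data were seen, BBX24 was the 1 gene of the 6 that passed in each genotype, against 0.659% of probe sets in lhy cca1 and 0.712% in WS. It rose in that interval by 0.67 ± 0.12 in lhy cca1 (limma adjusted p = 0.00899) and by 0.79 ± 0.12 in WS (limma adjusted p = 0.00174). In lhy cca1 the call was lost without any 1 of the 4 arrays compared (highest adjusted p = 0.125), and in WS without the first array at 15 min (0.051). BBX29 was higher at 30 than at 15 min by 1.63 ± 0.44 in lhy cca1 (limma adjusted p = 0.169) and by at least 1.93-fold in WS (limma adjusted p = 0.091), short of the threshold. With dim signals raised to the 40th percentile both passed (limma adjusted p = 0.00117 in lhy cca1 and 0.0485 in WS).

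Between 30 and 60 min none of the 6 passed in lhy cca1 with limma, against 1.99% of probe sets. An unadjusted p under 0.05 was found for 2 of the 6, and for 1765 of all 14878. In WS, BBX24 passed, against 1.73%, with a further rise of 0.55 ± 0.12 (limma adjusted p = 0.0211). That call was lost without either WS array at 30 min or the second at 60 min (highest adjusted p = 0.2). In lhy cca1 the BBX24 difference was 0.36 ± 0.12 (limma adjusted p = 0.152), and the COL2 difference was -0.47 ± 0.12 (limma adjusted p = 0.0543). The COL2 difference in WS went the same way, at -0.37 ± 0.12 (limma adjusted p = 0.151).

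The other genes had lower mean signals at 60 than at 30 min, short of the threshold. The difference of 60 minus 30 min for BBX25 was -0.19 ± 0.14 in lhy cca1 and -0.15 ± 0.14 in WS, and for BBX29 -0.83 ± 0.44 in lhy cca1 and -0.12 ± 0.44 in WS. For CO in WS it was -1.35 ± 0.47 (limma adjusted p = 0.191). Without the second WS array at 60 min this CO difference was -2.15 and passed (adjusted p = 0.0255), and without the first it was -0.55 (adjusted p = 0.695). With dim signals raised to the 40th percentile it was -0.81 and passed (adjusted p = 0.0282).

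BBX24 had covered 20.8% of its 60 min log2 rise at 15 min and 72.1% at 30 min in lhy cca1. In WS the shares were 25.7% at 15 min and 69.6% at 30 min. They are ratios of fitted differences and carry the errors given above.

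The second comparison asks which of these genes differed between lhy cca1 and WS seedlings. Over the mean of the 4 times, BBX24 and BBX29 were higher and CO and BBX25 lower in lhy cca1. COL1 and COL2 did not pass in the main fit. At single times few differences passed, and that of BBX24 was widest before dawn and narrowest at 60 min.

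In the mean over 4 times 4 of the 6 genes passed, against 18.2% of probe sets. BBX24 was higher in lhy cca1 by 0.28 ± 0.058 log2, which is 1.21-fold (limma adjusted p = 0.00329). BBX25 was lower in lhy cca1, with a difference of -0.23 ± 0.071, or 0.856 of the WS signal (limma adjusted p = 0.0363). BBX29 was higher in lhy cca1 by 1.28 ± 0.22 (limma adjusted p = 7.27e-04) and CO lower, with a difference of -0.86 ± 0.24 (limma adjusted p = 0.018). The last 2 values include dim groups and are no measure of fold. With dim signals raised to the 40th percentile, a setting added after the data were seen, the difference was 0.41 for BBX29 and -0.33 for CO, and both still passed (adjusted p = 0.0121 and 0.0156).

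COL1 differed in the mean by -0.11 ± 0.080, with a 95% interval of -0.27 to 0.064 (limma adjusted p = 0.398). COL2 differed by -0.11 ± 0.060, with an interval of -0.24 to 0.012 (limma adjusted p = 0.203). The median of the 6 genes was -0.11 and that of all tested probe sets 0.024. The sign of the difference was the same at all 4 times for CO, BBX24, BBX25 and BBX29, and at 3 of the 4 times for COL1 and COL2.

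The 2 arrays of lhy cca1 did not overlap the 2 of WS in one direction at all 4 times for BBX25, as for 8.02% of tested probe sets. They did so at 3 or 4 times for CO, BBX24, BBX25 and BBX29, which are 4 of the 6, against 21.8% of tested probe sets. At a single time or step, arrays of 2 groups fail to overlap for 36.9% to 50.3% of tested probe sets.

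Leaving out the second lhy cca1 arrays, those of high 25S signal, keeps 1 array in each lhy cca1 group. Calls lost in that setting cannot be told apart from the loss of arrays. Without these 4 arrays the difference in the mean was -0.88 for CO, 0.26 for BBX24, -0.16 for BBX25 and 1.27 for BBX29. With them it was -0.86 for CO, 0.28 for BBX24, -0.23 for BBX25 and 1.28 for BBX29. With the 25S signal as a covariate, CO differed by -0.75 (adjusted p = 0.146) and BBX25 by -0.15 (adjusted p = 0.324), and BBX24 and BBX29 passed. The BBX25 call was also lost under quantile normalization (-0.19, adjusted p = 0.0713), and without any 1 of the 8 second arrays or the first lhy cca1 array at 30 min (highest adjusted p = 0.0989).

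Before dawn 2 of the 6 passed, against 1.61% of probe sets. BBX24 was higher in lhy cca1 by 0.53 ± 0.12, which is 1.45-fold (limma adjusted p = 0.0271). BBX29 passed as well (limma adjusted p = 0.00354), but both genotypes were dim for it at that time and no fold is given. With dim signals raised to the 40th percentile the BBX29 difference was 0.071 (adjusted p = 0.912), and without the second lhy cca1 array before dawn it did not pass (adjusted p = 0.0515). The BBX24 call was lost without that same array (0.43, adjusted p = 0.317), without the first or second WS array before dawn (adjusted p = 0.203 and 0.0651), with the 25S covariate (adjusted p = 0.0691), under median centring (adjusted p = 0.0546) and when only the arrays compared were fitted (adjusted p = 0.084).

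At 15 min after dawn none of the 6 passed in limma, against 1.73% of probe sets. An unadjusted p under 0.05 was found for 4 of the 6, and for 2163 of all 14878. BBX24 was 0.34 ± 0.12 higher in lhy cca1 (limma adjusted p = 0.176), BBX29 at least 1.24-fold higher (limma adjusted p = 0.25) and the COL1 difference was -0.37 ± 0.16 (limma adjusted p = 0.286).

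At 30 min none passed in limma, against 1.07% of probe sets. An unadjusted p under 0.05 was found for 2 of the 6, and for 1662 of all 14878. CO was at least 2.02-fold lower in lhy cca1 (limma adjusted p = 0.306), and it passed when only the arrays compared were fitted (adjusted p = 0.0475) or dim signals were raised (adjusted p = 0.0118). BBX29 was higher by 0.99 ± 0.44 (limma adjusted p = 0.41), and it too passed in those settings (adjusted p = 0.0475 and 0.033). BBX24 was 0.21 ± 0.12 higher (limma adjusted p = 0.543).

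At 60 min none of the 6 passed in limma, against 3.39% of probe sets. None had an unadjusted p under 0.05, against 2565 of all 14878. BBX24 then differed by 0.028 ± 0.12, with a 95% interval of -0.22 to 0.28. CO differed by -0.083 ± 0.47, BBX29 by 0.27 ± 0.44 and COL2 by -0.25 ± 0.12 (limma adjusted p = 0.294).

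**Figure D3:**
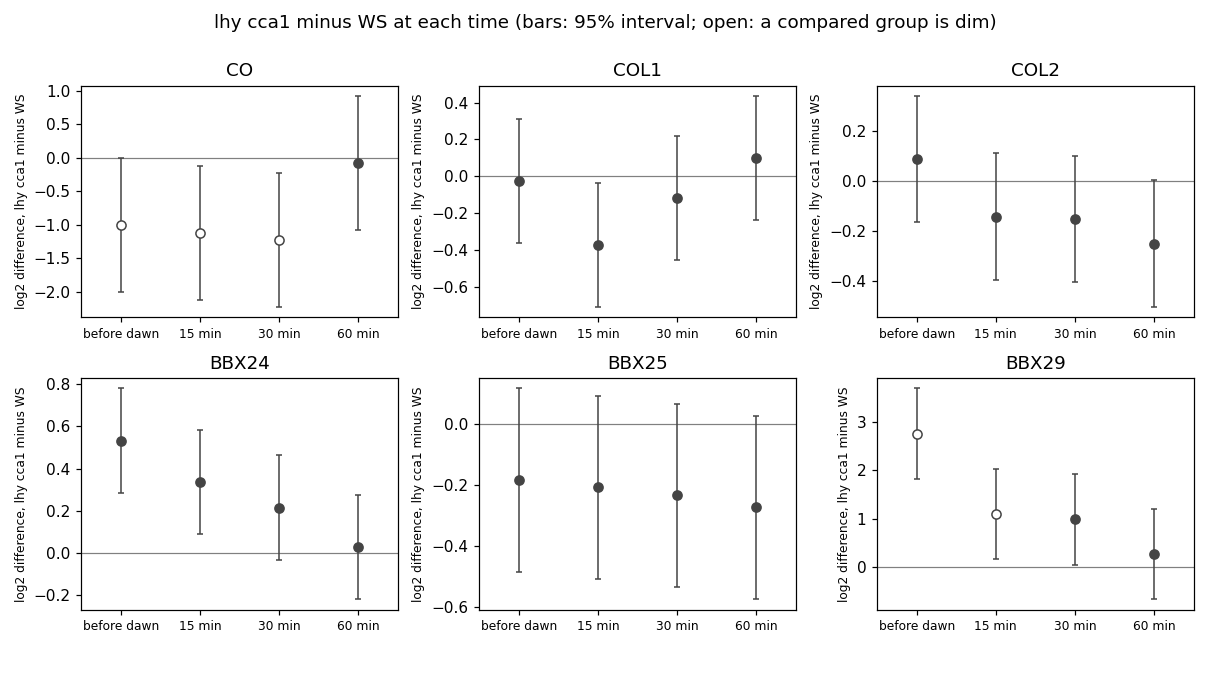
Log2 difference of lhy cca1 minus WS before dawn and at 15, 30 and 60 min for the 6 B-box genes (points, with 95% intervals from limma, 2 arrays per group), with open points where a compared group is dim. The BBX24 difference steps down over the 4 times to 0.028 at 60 min, and BBX25 stays below 0 at every time with intervals that reach 0.

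The third comparison asks whether the change after dawn differed between the genotypes. No B-box gene passed the limma test of that difference at 15, 30 or 60 min. Over all tested probe sets the share that passed was 0% at 15 min, 0% at 30 min and 0.0202% at 60 min. Of the 6 genes, BBX29 had an unadjusted p under 0.05 at 15, 30 and 60 min, and BBX24 at 60 min. Over all 14878 probe sets, 634 did at 15 min, 695 at 30 min and 1021 at 60 min.

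By value the BBX24 rise was the smaller in lhy cca1 at each time, without passing the test. The difference between the rises, lhy cca1 minus WS, was -0.19 ± 0.17 at 15 min, -0.32 ± 0.17 at 30 min and -0.50 ± 0.17 at 60 min (limma adjusted p = 0.552 at 60 min, interval -0.85 to -0.15). All 3 share the arrays before dawn, where BBX24 was the higher in lhy cca1. For BBX25 the difference at 60 min was -0.089 ± 0.20, with an interval of -0.51 to 0.33. The size of the BBX29 rise cannot be compared between genotypes, since both starting levels were dim.

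BBX24 and BBX25 differed between genotypes in opposite directions, so their ratio within an array was examined after their values had been seen. A permutation test of it was run but is void, because the ratio was chosen for its pattern, and the values are given as a description. The log2 ratio of BBX24 to BBX25 signal in lhy cca1 was 0.30 and 0.64 before dawn, 0.34 and 0.58 at 15 min, 0.69 and 0.72 at 30 min, then 1.24 and 1.29 at 60 min. The ratio in WS was -0.23 and -0.27 before dawn, -0.092 and -0.073 at 15 min, 0.41 and 0.11 at 30 min, then 1.11 and 0.82 at 60 min. The lhy cca1 arrays were above the WS arrays at each of the 4 times. The difference of the means was 0.72 before dawn, 0.55 at 15 min, 0.45 at 30 min and 0.30 at 60 min. The zero of this ratio has no meaning, because it depends on how brightly each probe set binds, and a ratio shows unequal levels between arrays, not which gene differs.

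**Figure D4:**
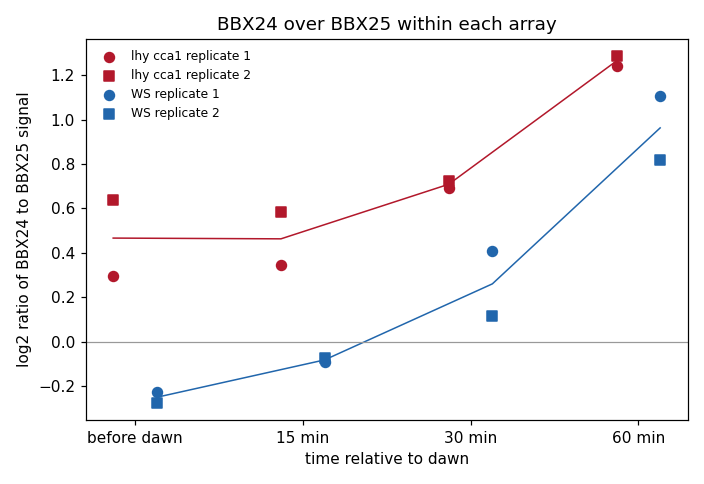
Log2 ratio of BBX24 to BBX25 signal on each of the 16 arrays before dawn and at 15, 30 and 60 min, with lines through the group means. The 2 lhy cca1 arrays lie above the 2 WS arrays at every time, from a mean difference of 0.72 before dawn to 0.30 at 60 min.

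Across the 16 arrays the log2 signals of BBX24 and BBX29 correlated at 0.86, those of BBX25 and BBX29 at 0.68 and those of BBX24 and BBX25 at 0.67 (Pearson's r). Within the 8 arrays of a genotype, BBX25 and BBX29 correlated at 0.96 in lhy cca1 and 0.93 in WS. BBX24 and BBX25 correlated at 0.81 in lhy cca1 and 0.83 in WS. COL2 ran against BBX24, at -0.72 in lhy cca1 and -0.20 in WS. CO and COL1 correlated at 0.96 in lhy cca1 and 0.50 in WS. These are descriptions of arrays that share times and genotypes, not independent samples, and dim signals enter those of CO and BBX29.

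Among 8049 tested probe sets with 1 named gene, those most like each B-box gene over the 16 arrays were found by Pearson's r of log2 signal. Most like BBX24 was AT3G44450 (0.95), then AT1G48100 (0.93) and AT5G51260 (0.93), and least like it AT4G33960 (-0.95). Most like BBX29 were ATL5 (0.91), AT3G44450 (0.87) and AT5G65685 (0.84), so AT3G44450 stood near both genes, and least like it was AT5G11070 (-0.92). For BBX25 they were AT2G19650 (0.93), AT5G42760 (0.92) and AT3G01660 (0.90), with AT1G23390 at -0.94.

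Among the genes with a CCT domain, COL2 was most like AT1G09010 (0.91), AT4G19530 (0.88) and AT1G20760 (0.86), with AT1G05070 at -0.86. CO was most like AT1G14345 (0.87), AT1G49750 (0.82) and VHA-A3 (0.81), with AT1G50060 at -0.86. COL1 was most like AT5G62030 (0.83), AT1G21630 (0.82) and AT2G01410 (0.82), with Y14 at -0.80.

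Few other genes of these pathways could be read on the named probe sets. Of 26 other B-box genes, 1 had a named probe set: COL13, a CONSTANS-like gene, was between 40.6 and 66.5 on all arrays and passed in none of the 18 comparisons. Of 12 genes that act with BBX24 and BBX25, 1 had one: HYH, the HY5 homologue. HYH signal in lhy cca1 was 105 and 107 before dawn and 150 and 179 at 60 min, against 120 and 90.0 in WS before dawn and 160 and 190 in WS at 60 min. At 30 min it was 131 and 162 in lhy cca1, against 179 and 162 in WS. It was higher than before dawn by 0.63 ± 0.17 in lhy cca1 at 60 min (limma adjusted p = 0.0237), and in WS by 0.71 ± 0.17 at 30 min and 0.74 ± 0.17 at 60 min (limma adjusted p = 0.0352 and 0.0091). The HYH difference in lhy cca1 at 30 min was 0.46 ± 0.17 (limma adjusted p = 0.303). HYH did not pass between genotypes at any time. Its change at 30 min was not shown to differ between them (limma adjusted p = 0.9997).

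Of 20 genes around CO in the control of flowering, 2 had named probe sets. GI, which with FKF1 frees CO from its repressors, had a signal of 361 and 405 in lhy cca1 at 60 min, against 80.4 and 92.3 in WS (log2 difference 2.15 ± 0.43, limma adjusted p = 0.0116). CO at that time was 11.2 and 22.1 in lhy cca1, against 9.54 and 29.0 in WS. CDF5, which encodes a repressor of CO transcription, did not pass the filter on dim signals and lay between 4.57 and 24.2.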

How the data were processed

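Signal was measured on 16 ATH1 arrays. The intensities deposited by the authors came from MAS5 and GCOS, per the submitters' processing notes, whose versions are not given in the sources. Labelling was one-cycle, per the labels' protocols. The deposited intensity is linear and had been scaled per array: array means after trimming 2% of probe sets at either end were all 100.01, as read from the values. The number of arrays limits precision.

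Intensities were converted to log2 with no offset. Probe sets above the array's 40th percentile on at least 2 arrays were tested. In R 4.3.3, limma 3.58.1 was run on all 16 arrays with 8 group means (eBayes with an intensity trend, 8 residual degrees of freedom). Tests were 2-sided, with Benjamini-Hochberg adjustment over all tested probe sets. The fit was tested on simulated data.

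The genes, lists and tests were chosen with earlier results of these data known. Named were the 6 genes, tested members of the fixed lists (up to 6 per comparison), and the 3 most like and 1 least like probe set of each gene. Where 1 of 2 groups was dim, the brighter mean was set against the higher of the percentile and the dim signal ("at least N-fold"), and no fold is given if both were dim. The p-value printed beside such a bound is that of the main limma fit, in which dim signals were not raised.

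Same-numbered replicates were checked for deviating together: over 28 pairs of groups r lay between -0.02 and 0.27, above 0.1 in 15. The numbers were not taken to pair samples, and an effect shared by same-numbered arrays was not excluded. Alternatives were quantile normalization, median centring, no filter, a 60th percentile filter, 16 added before log2, only the arrays compared, a replicate block, a 25S covariate, leaving out the second lhy cca1 arrays, leaving out each array in turn, and a floor for dim signals.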

Additional observations from a re-analysis of the deposited data

How the results depend on the processing

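Of the 23 differences of B-box genes that passed the threshold, recomputed in up to 26 other settings, 527 of 593 values kept their direction and passed, 65 kept their direction and did not pass, and 1 changed sign. Leaving out 1 array gave 368 of these values and 37 of those losses. The log2 difference itself cannot change under another filter, the replicate block or a fit of only the arrays compared. Nor can it when the array left out lies outside the groups compared. Direction was therefore fixed in those settings, where only the p-value could move. With 2 arrays per group, and with CO and BBX29 near or under the dim range, small differences were not measurable. The cause of the changes below was not tested.

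The number of the 6 genes past the threshold moved as follows. For lhy cca1 minus WS in the mean over 4 times it was 2 with the 25S covariate and 1 without the second lhy cca1 arrays, against 4. Before dawn it was 1 with median centring, 16 added, the 25S covariate or the floor for dim signals, and 0 with only the arrays compared or without the second lhy cca1 arrays, against 2. At 30 min it was 2 with only the arrays compared or the floor, against 0. For later minus before dawn in lhy cca1 without the second arrays it was 1 at 30 min and 1 at 60 min, and at 60 min it was 2 with only the arrays compared. In WS at 15 min it was 0 with 16 added, only the arrays compared, no second lhy cca1 arrays or the floor. For 60 minus 30 min it was 1 in lhy cca1 with quantile normalization, the 60th percentile filter or the floor, and in WS 0 with only the arrays compared or without the second lhy cca1 arrays, and 2 with the floor. For 30 minus 15 min it was 2 in lhy cca1 with 16 added, only the arrays compared or the floor, and 0 without the second arrays. In WS it was 2 with 16 added or only the arrays compared, and 3 with the floor. Calls over all probe sets moved too, in both directions. With the 25S covariate they were 1182 for the genotype mean, against 2709, and 152 before dawn, against 239. With only the arrays compared they were 1040 for lhy cca1 at 60 min, against 1415. For WS 60 minus 30 min they were 57, against 257. That setting gave more calls before dawn (299, against 239) and in WS at 15 min (30, against 19). Counts without the second lhy cca1 arrays cannot be told apart from the loss of arrays.

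Leaving out each array in turn, the count ranged from 3 to 4 for the genotype mean, 0 to 2 before dawn, 2 to 4 at 60 min and 0 to 1 for 60 minus 30 min in lhy cca1, 0 to 1 at 15 min and for 60 minus 30 min in WS, and 0 to 2 for 30 minus 15 min in each genotype. With the replicate block the count was 1 for 60 minus 30 min in lhy cca1 (COL2) and 2 for 30 minus 15 min in WS, where BBX29 joined BBX24. The numbers were not taken to pair the samples, and the block changed no other count by over 1.5 times.

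Some differences that were small or rest on dim signals changed sign. BBX24, lhy cca1 minus WS at 60 min, was -0.071 with median centring and lay between -0.0093 and 0.066 when 1 array was left out. BBX29 in WS at 15 min was -0.021 with the floor, and CO in lhy cca1, 30 minus 15 min, was -0.032. The difference between genotypes in the BBX29 rise, from dim starting levels, was -1.66, -1.77 and -2.49 at 15, 30 and 60 min in the main fit. It was 0.041 at 15 min and 0.25 at 30 min with 16 added. With the floor it was 0.24, 0.92 and 0.20 at 15, 30 and 60 min. With median centring the median genotype difference of all probe sets at 30 min was -0.078, against 0.030 without it, and the probe sets past the threshold in the mean over 4 times were 1021 higher and 2212 lower in lhy cca1, against 1616 and 1093 without it.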
